A study of Mus musculus with 4 samples.

Results

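The 35 genes described here carry glucose into the cell, break it down to pyruvate and lactate, and run the pentose phosphate branch. They were chosen by name, in pathway order, with earlier results of these data known, so the shares below are descriptive. All 35 were found among the 55385 genes of the table. In total, 33 of them averaged 10 or more normalized counts per library and could be tested, among 14238 genes tested in all. A normalized count is the number of reads of a gene divided by a size factor of its library. Slc2a3, a neuronal-type glucose transporter, had 1.02 and 0 normalized counts in the resistant libraries and 0 and 1.01 in the control libraries. Slc16a3, the lactate exporter MCT4, had 0 in both resistant libraries and 0 and 1.01 in the control libraries. These levels lie under the 3 reads that a count of 0 allows per library, so both transporters were not detectable at this depth and were not tested.

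Glycolysis traps glucose as glucose 6-phosphate, splits the sugar into a pair of 3-carbon molecules and turns these into pyruvate with a net yield of ATP and NADH. Pyruvate is either reduced to lactate, which restores NAD+, or enters the mitochondrion through pyruvate dehydrogenase, while the pentose phosphate pathway diverts glucose 6-phosphate to make NADPH and ribose for nucleotides. Many tumor cells take up much glucose and release lactate even where oxygen is present, and several steps have isoenzymes encoded by separate genes.

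RNA was sequenced in bulk from 4TO7 cells, a BALB/c mouse mammary carcinoma line, recovered from digested tumors grown in Balb/c mice. The 2 resistant libraries came from tumors resistant to immunotherapy with an antibody against the checkpoint ligand PD-L1, and the 2 control libraries came from control tumors. The treatment label reads untreated for all 4 samples whereas their treatment protocol names the antibody in vivo, so what the control tumors received is not resolved. The design text calls the samples individual biological replicates, but no source used here says whether they came from separate animals, whether the cells were sorted, or how old the mice were, and the p-values below cover no more than the spread among these 4 libraries. Depth was 45666470 to 49592054 counted reads per library. The standard deviation over genes of the log2 difference between libraries of a pair was 0.306 for the resistant pair and 0.453 for the control pair.

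The labelled cell type was checked against markers. The carcinoma keratin Krt8 had 15137 and 17275 normalized counts in resistant libraries and 21116 and 12649 in control libraries, and Krt14 and Krt5 were at 0 in all 4. The epithelial adhesion gene Epcam fell to 87.6 and 114 in resistant libraries, against 341 and 246 in control libraries. The keratins Krt19 and Krt7 rose, Krt19 to 298 and 425 in resistant libraries against 48.0 and 41.4 in control libraries, and Krt7 to 90.7 and 135 in resistant libraries against 34.6 and 24.2 in control libraries. The leukocyte marker Ptprc stayed between 0 and 2.15. The leukocyte list, mostly Coro1a, summed to 56.05 and 48.3 in resistant and to 58.6 and 48.4 in control libraries. The summed T and NK cell list stayed between 0.961 and 2.15, and the erythroid list between 0 and 2.02. The mesenchymal list, mostly Fn1 and Vim, summed to 688219 and 824731.5 in resistant and to 644852 and 590463 in control libraries. The adipocyte list, mostly Fabp4, summed to 50.95 and 64.4 in resistant and to 38.4 and 12.1 in control libraries. The macrophage list summed to 10577 and 9987 in resistant libraries and to 3233 and 6360 in control libraries. Nearly all of that was the lysosomal gene Cd68, which rose, while the defining macrophage genes Adgre1, C1qa and C1qb had at most 1.01. Of the other macrophage genes, Csf1r lay at 3.06 to 8.07 and Lyz2 at 8.15 and 7.51 in resistant libraries, against 1.92 and 1.01 in control libraries. The fibroblast list summed to 7138 and 8492 in resistant and to 9282 and 6395 in control libraries, mostly Pdgfra. The neutrophil list, mostly S100a8, summed to 396 and 393 in resistant and to 800.2 and 421 in control libraries, the endothelial list stayed between 14.3 and 30.7, and the B cell list between 4.03 and 7.13. Of the fibroblast genes, Dcn fell to 163 and 143 in resistant libraries, against 763 and 483 in control libraries, and Col1a2 stood apart in control replicate 2 with 76.7, against at most 1.07 elsewhere. The pericyte and muscle list summed to 712 and 838 in resistant and to 722 and 497 in control libraries, and 2 of its genes rose. These were Pdgfrb, to 352 and 458 in resistant libraries against 218 and 185 in control libraries, and Tnnt3, to 138 and 132 in resistant libraries against 46.1 and 37.3 in control libraries. Myh1 of this list went the other way, at 93.75 and 117 in resistant libraries against 306 and 164 in control libraries. It did not pass the threshold used below. In bulk RNA, fewer cells of a type and less RNA per cell cannot be told apart, and the part of other cells in the values below was not tested.

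The transcripts that rose in resistant cells encode 3 isoenzymes at separate steps: Hk2 at glucose phosphorylation, Pfkp at the committed phosphofructokinase step and Eno2 near the end of the pathway. These 3 were higher by 1.64 to 1.90 times, and none of the 33 tested genes fell. The count is 9.09% of the tested glycolysis and pentose phosphate genes, beside 5.32% of all tested genes called higher and 10.1% called in either direction (limma on the deposited log2 values, Benjamini-Hochberg adjusted p under 0.05). For falls the background was 4.73% of all tested genes. At an unadjusted p under 0.05, 9 of the 33 were higher and 1 was lower, which is 27.3% and 3.03%, beside 13.8% and 12.6% of all tested genes. The log2 fold change, resistant minus control throughout, was positive in 25 and negative in 8, beside 50.3% positive over all tested genes. Its median was 0.15 over the 33 genes and 0.0023 over all tested genes. Both resistant libraries lay above both control libraries for 15 of the 33 (45.5%), beside 28.4% of all tested genes, and below them for 3 (9.09%), beside 28.3%.

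**Figure D1:**
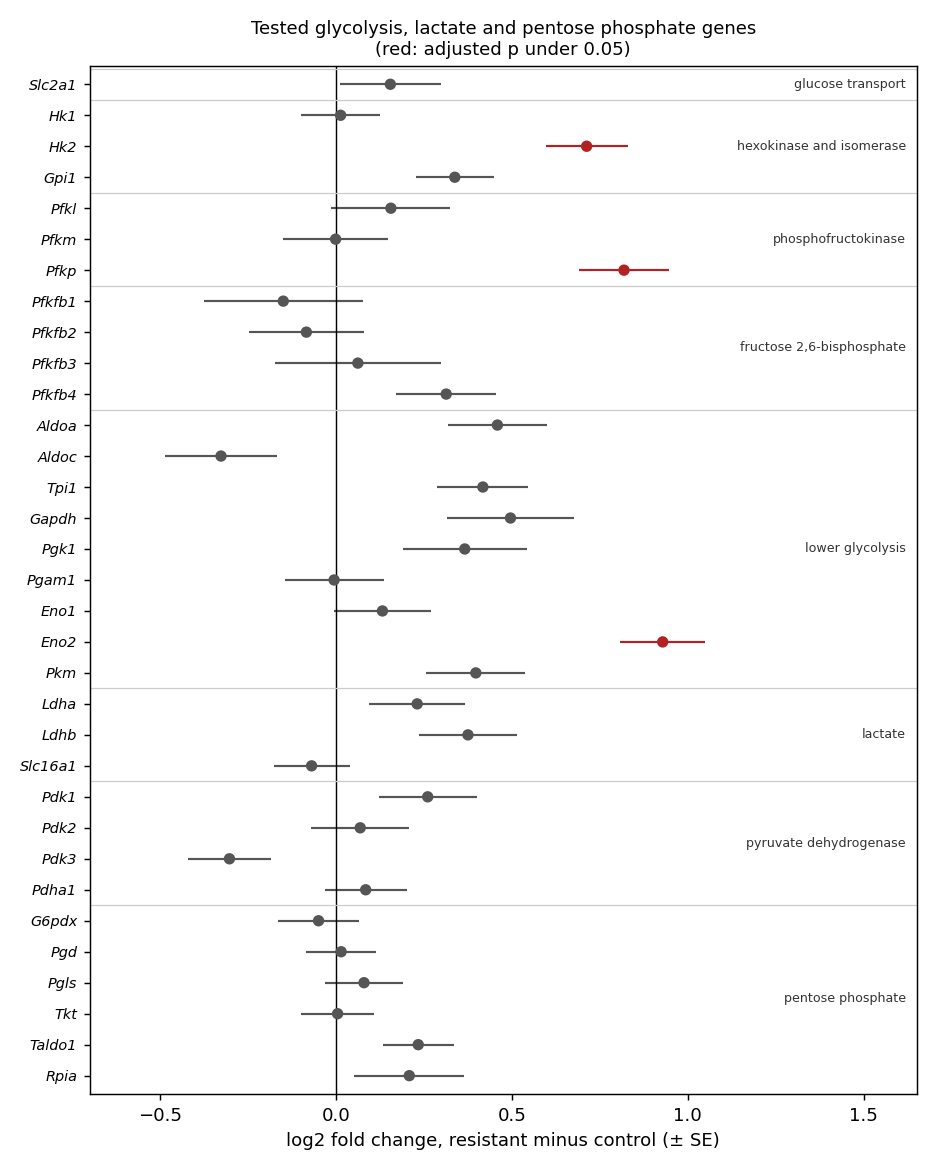
Log2 fold change (resistant minus control, x axis) of each of the 33 tested genes, grouped by step down the page, with bars of ± 1 SE from limma. Red marks Hk2, Pfkp and Eno2, which passed an adjusted p of 0.05 at 0.71, 0.82 and 0.93, and the pentose phosphate genes at the bottom run from -0.05 to 0.23.

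Hk2 (ENSMUSG00000000628.10, chromosome 6, 82725025 to 82774454, minus strand, GRCm38) encodes a mitochondria-binding hexokinase that is high in muscle, fat and many tumors. It had 9791 and 10998 normalized counts in resistant libraries, against 5959 and 6731 in control libraries. Both resistant libraries stood above both control libraries, with means of 10395 ± 854 in resistant and 6345 ± 546 in control libraries (SD, n = 2 each). The log2 fold change was 0.71 ± 0.12 (SE, limma, adjusted p = 0.0113). Without resistant replicate 2 it was 0.63 and the call was lost (limma, adjusted p = 0.126), as it was with no filter on low values (limma, adjusted p = 0.0690). The median log2 fold change of the 79 other tested genes starting within 5 Mb was 0.28.

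Pfkp (ENSMUSG00000021196.14, chromosome 13, 6579768 to 6648777, minus strand), the platelet-type subunit of phosphofructokinase, had 5588 and 6651 normalized counts in resistant libraries, against 3688 and 3240 in control libraries. The groups did not overlap, and their means were 6119 ± 752 in resistant and 3464 ± 317 in control libraries (SD, n = 2 each). Its log2 fold change was 0.82 ± 0.13 (SE, limma, adjusted p = 0.00941). Without resistant replicate 2 this was 0.69 and no longer passed (limma, adjusted p = 0.0903), nor did it with no filter on low values (limma, adjusted p = 0.0689). The gene's end overlaps the mitochondrial peptidase gene Pitrm1, which runs on the opposite strand, over 748 exon bases, and the strand setting of the counting is not known here. Pitrm1 had 8519 and 8489 normalized counts in resistant libraries and 8568 and 8165 in control libraries, a log2 fold change of 0.02 ± 0.10 (limma, adjusted p = 0.908). Around Pfkp the median of 21 neighbouring genes was -0.16.

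Eno2 (ENSMUSG00000004267.16, chromosome 6, 124760053 to 124769673, minus strand), known as neuron-specific enolase, showed the largest fold change of the 33. It had 13458 and 14467 normalized counts in resistant libraries, against 6723 and 7994 in control libraries. The resistant libraries were again both above the control ones, at means of 13963 ± 714 in resistant and 7358 ± 899 in control libraries (SD, n = 2 each). Its log2 fold change was 0.93 ± 0.12 (SE, limma, adjusted p = 0.00459), the call held with each library left out in turn, where it ran between 0.80 and 1.05, and the 100 neighbouring genes had a median of 0.12.

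**Figure D2:**
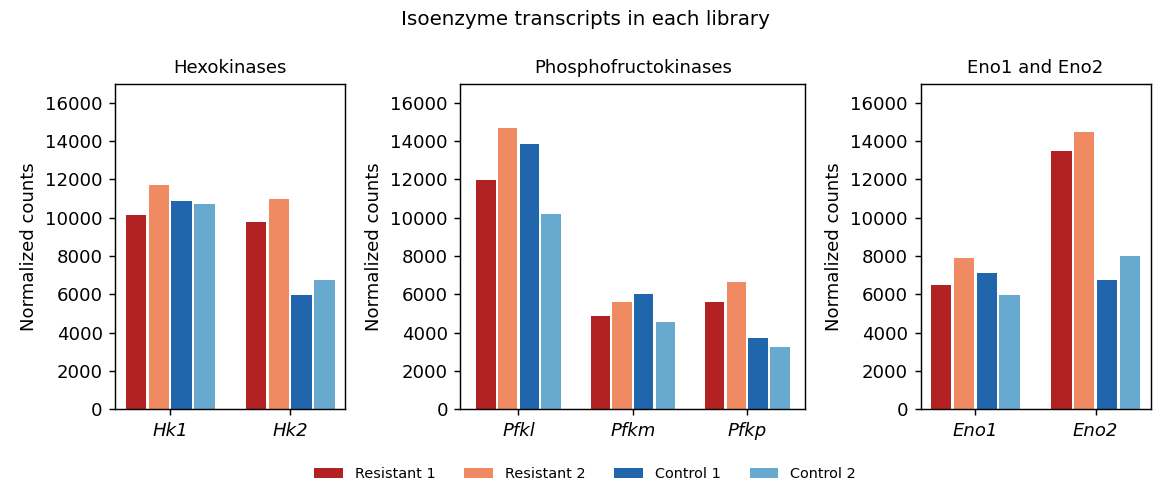
Normalized counts (y axis, from 0) of the hexokinase, phosphofructokinase and enolase genes in each library, as bars for resistant 1, resistant 2, control 1 and control 2 from left to right. Hk2, Pfkp and Eno2 are higher in both resistant libraries, while the bars of Hk1, Pfkl, Pfkm and Eno1 overlap between the groups.

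The promoters of these 3 genes are shown with a promoter window of Ldha, which encodes a lactate dehydrogenase subunit. That window was picked because it held the most matches to a pair of short motifs known from glycolytic promoters. ACGTG is a form of the core of the hypoxia response element bound by HIF factors, and other forms were not counted. CACGTG is the E-box bound by Myc and related factors. Each run is the 250 bases before the RefSeq start on GRCm38.p6, 5′ to 3′ on the gene's strand, with each ACGTG, on either strand, in capitals. Hk2 lies at chr6:82774455-82774704 (-), Pfkp at chr13:6648772-6649021 (-), Eno2 at chr6:124769674-124769923 (-) and Ldha at chr7:46845554-46845803 (+).
Hk2: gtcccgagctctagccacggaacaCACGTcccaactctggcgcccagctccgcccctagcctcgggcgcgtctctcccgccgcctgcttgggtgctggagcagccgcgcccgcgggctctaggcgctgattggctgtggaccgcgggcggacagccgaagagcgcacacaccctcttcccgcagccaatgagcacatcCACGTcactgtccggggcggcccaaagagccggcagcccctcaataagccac
Pfkp: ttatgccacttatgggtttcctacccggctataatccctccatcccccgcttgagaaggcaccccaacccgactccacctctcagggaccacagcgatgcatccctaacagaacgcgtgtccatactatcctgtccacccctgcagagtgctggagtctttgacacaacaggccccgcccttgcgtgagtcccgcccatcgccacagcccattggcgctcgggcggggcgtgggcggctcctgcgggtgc
Eno2: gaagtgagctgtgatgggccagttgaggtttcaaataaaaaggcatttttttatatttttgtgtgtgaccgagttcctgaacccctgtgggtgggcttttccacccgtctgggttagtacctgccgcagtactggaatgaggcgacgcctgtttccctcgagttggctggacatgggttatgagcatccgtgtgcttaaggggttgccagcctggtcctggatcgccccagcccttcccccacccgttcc
Ldha: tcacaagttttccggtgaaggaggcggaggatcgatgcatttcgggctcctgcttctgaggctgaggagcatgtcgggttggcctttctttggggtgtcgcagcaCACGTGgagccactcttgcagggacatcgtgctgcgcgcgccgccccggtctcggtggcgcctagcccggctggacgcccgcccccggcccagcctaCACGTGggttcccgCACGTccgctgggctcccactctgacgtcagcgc
The Hk2 window held 2 matches to ACGTG and no CACGTG, the Pfkp and Eno2 windows held none of either, and the Ldha window shown held 5 and 2. Another Ldha window, at chr7:46846832-46847081 (+), held 0 and 0. Every CACGTG is counted for ACGTG on each strand as well. In windows running from 250 bases before to 50 after the start, ACGTG stood in 22 of the 54 windows of these genes (40.7%, in 18 of 34 genes, Slc2a3 not included), beside 19.6% of all 32851 windows of RefSeq promoters and 25.2% of the windows of tested genes. CACGTG stood in 6 of the 54 (11.1%), beside 7.15% and 9.73%. In the 250 bases before the start alone, as printed above, ACGTG stood in 18 of the 54 windows (33.3%, in 14 of 34 genes). This is beside 16.6% of all windows and 21.4% of those of tested genes. There CACGTG stood in 6 of the 54 (11.1%), beside 6.02% and 8.14%. Windows of alternative starts of a gene can overlap, and a match describes only these letters.

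At glucose entry, Slc2a1, the widespread transporter GLUT1, had 10268 and 12227 normalized counts in resistant libraries and 11206 and 9046 in control libraries. The groups overlapped and the log2 fold change was 0.15 ± 0.14 (limma, adjusted p = 0.539). Hk1, the hexokinase most tissues use, had 10155 and 11701 in resistant libraries, against 10893 and 10716 in control libraries. Its log2 fold change of 0.01 ± 0.11 (limma, adjusted p = 0.958) lay close to 0 and turned slightly negative under other scalings. Gpi1, which isomerizes glucose 6-phosphate to fructose 6-phosphate, had 29165 and 30553 normalized counts in resistant libraries and 22813 and 24464 in control libraries. These did not overlap, but its log2 fold change of 0.34 ± 0.11 did not pass (limma, adjusted p = 0.104).

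Within the hexokinase pair the share of Hk2 differed. Scaled per kb of exon, Hk2 made up 57.9% and 57.3% of hexokinase reads in resistant libraries, against 43.9% and 47.3% in control libraries. The means were 57.6% ± 0.439 in resistant and 45.6% ± 2.42 in control libraries (SD, n = 2 each), 12.05 percentage points apart. With 2 libraries against 2, the exact two-sided permutation test gives p = 0.333, the smallest it can give. The other side of the pair, Hk1, took 42.4% ± 0.439 in resistant and 54.4% ± 2.42 in control libraries. Which of the pair is more abundant depends on the length used: scaled to sequence found in no other gene, Hk2 held 41.8% in resistant and 30.7% in control libraries, still 11.1 points apart.

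**Figure D3:**
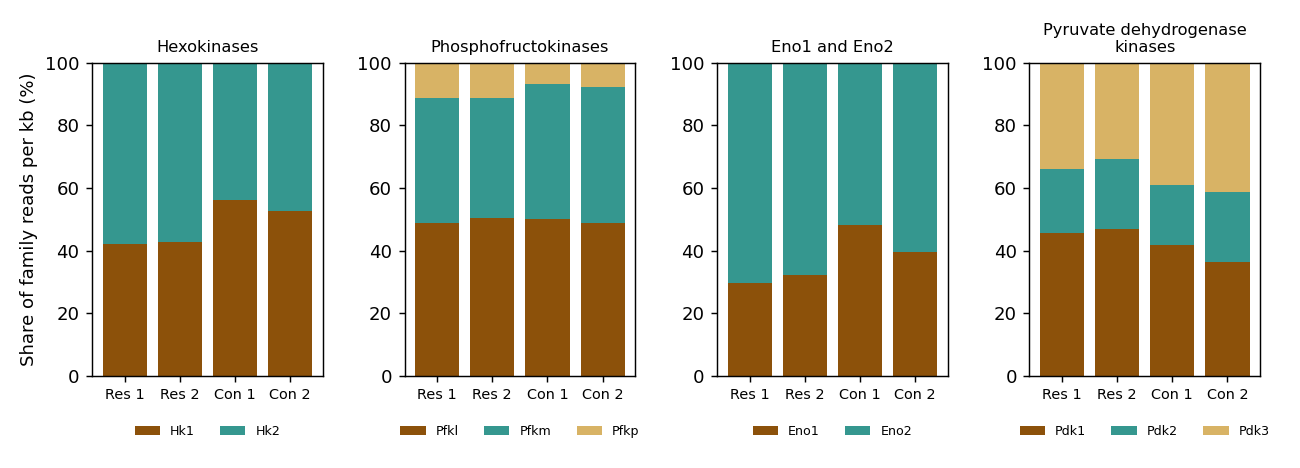
Share of each isoenzyme in the summed reads per kb of exon of the genes shown in its panel (%, y axis), stacked to 100% for each library, resistant libraries left of control libraries. Hk2 and Eno2 take a larger share in both resistant libraries, Pfkp goes to 11.4% in them against 7.18% in control libraries on average, and Pdk3 takes a smaller share. Eno3, a further enolase gene, is not part of the Eno1 and Eno2 panel.

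Phosphofructokinase commits fructose 6-phosphate to glycolysis and is built from liver, muscle and platelet subunits. Pfkl, the liver-type subunit and the most abundant of these genes per kb of exon, had 11962 and 14673 normalized counts in resistant libraries and 13851 and 10209.7 in control libraries. Pfkm, the muscle type, had 4884 and 5572 in resistant libraries against 5987 and 4555 in control libraries. Both overlapped between the groups, with log2 fold changes of 0.16 ± 0.17 and -0.0013 ± 0.15 (limma, adjusted p = 0.608 and 0.997). Per kb of exon, Pfkp was the least abundant subunit, at 11.4% and 11.4% of the family in resistant libraries and 6.64% and 7.71% in control libraries, while the Pfkl share was 49.6% ± 1.11 in resistant and 49.4% ± 0.92 in control libraries. Both depend on the scale. Per window found in no other gene, Pfkp held 24.8% ± 0.0722 in resistant and 16.7% ± 1.61 in control libraries, close to the 25.5% ± 0.84 of Pfkm in resistant libraries, and Pfkl held 49.7% ± 0.912 in resistant and 53.0% ± 1.46 in control libraries, which did not overlap (SD, n = 2 each, exact permutation p = 0.333). In normalized counts Pfkp exceeded Pfkm in both resistant libraries.

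The Pfkfb genes encode the enzymes that make and remove fructose 2,6-bisphosphate, a potent activator of phosphofructokinase, and none of the 4 passed. Pfkfb3, the isoform with the highest ratio of kinase to phosphatase activity and the most abundant here per kb, had 4446 and 3457 normalized counts in resistant libraries and 2903 and 4859 in control libraries. The control libraries thus spanned both resistant ones, and the log2 fold change was 0.06 ± 0.24 (limma, adjusted p = 0.899). Pfkfb4 was separated, with 815 and 907 in resistant libraries against 733 and 654 in control libraries, but its log2 fold change of 0.31 ± 0.14 did not pass (limma, adjusted p = 0.214). Pfkfb1 and Pfkfb2 had log2 fold changes of -0.15 and -0.08 at 108 to 499 normalized counts.

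The 9 genes from aldolase to pyruvate kinase had a median log2 fold change of 0.40. For 6 of them (66.7%, beside 28.4% of all tested genes) both resistant libraries stood above both control libraries. For 1, Aldoc, they stood below (11.1%, beside 28.3%). Only Eno2 passed (11.1%, beside 5.32% of all tested genes called higher). Aldoa, the muscle-type aldolase that splits fructose 1,6-bisphosphate, was the most abundant of the 35 genes per kb of exon, at 671 ± 63.3 RPKM (reads per kb of exon, scaled to the depth of the library) in resistant libraries and 501 ± 16.9 RPKM in control libraries (SD, n = 2 each). It had 87357 and 102095 normalized counts in resistant libraries, against 67866 and 69591 in control libraries. The groups did not overlap, but the log2 fold change of 0.46 ± 0.14 did not pass (limma, adjusted p = 0.0854). A second annotated Aldoa identifier held 81.5 and 79.4 in resistant libraries and 68.2 and 84.7 in control libraries and was not used. Aldoc, the brain-type aldolase, had 1621 and 1894 in resistant libraries against 2515 and 1922 in control libraries, a log2 fold change of -0.33 ± 0.16 (limma, adjusted p = 0.239).

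Tpi1, which interconverts the triose phosphates, had 35181 and 37099 normalized counts in resistant libraries and 29636 and 24694 in control libraries, with a log2 fold change of 0.42 ± 0.13 (limma, adjusted p = 0.0893). Pkm, the pyruvate kinase gene whose splice forms are not separated here, had 70701 and 79716 in resistant libraries and 61221 and 53072 in control libraries, with 0.40 ± 0.14 (limma, adjusted p = 0.122). Neither overlapped between groups and neither passed. Pgk1, phosphoglycerate kinase, had 851 and 1163 in resistant libraries and 816 and 730.2 in control libraries, with 0.37 ± 0.18 (limma, adjusted p = 0.238). Pgam1, phosphoglycerate mutase, lay at 665 to 747 in all 4 libraries, with -0.0056 ± 0.14. With each library left out in turn, log2 fold changes ran from 0.35 to 0.57 for Aldoa and from 0.29 to 0.55 for Tpi1. They ran from 0.39 to 0.60 for Gapdh, 0.14 to 0.59 for Pgk1 and 0.29 to 0.50 for Pkm. Those of Aldoc stayed negative, from -0.52 to -0.13. The lone control library of a fit without the other control library is assumed to vary like the resistant pair, whose spread is the smaller.

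**Figure D4:**
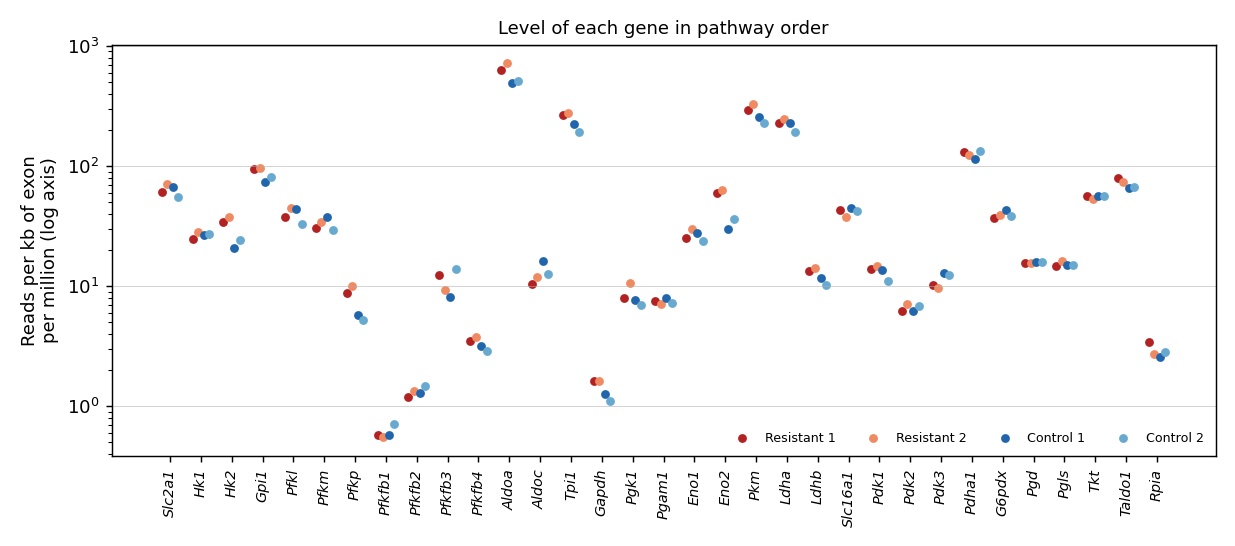
Level of each gene with more than 3 reads in some library, in RPKM on a log axis, in pathway order from left to right, with 1 point per library (resistant 1 and 2, then control 1 and 2). Aldoa, Pkm, Tpi1 and Ldha are highest, and Gapdh lies among the lowest at 1.63 in resistant and 1.19 in control libraries on average.

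Gapdh, the glyceraldehyde 3-phosphate dehydrogenase gene and a common reference transcript, had only 320.0 and 331 normalized counts in resistant libraries and 248.8 and 213.8 in control libraries. Its log2 fold change was 0.50 ± 0.18 (limma, adjusted p = 0.130). Of the windows of 50 bases along its longest coding transcript, 82.5% also occur in another annotated gene. Annotated copies that share at least 200 such windows number 57, and together held 11534 and 12963 normalized counts in resistant libraries, against 9424 and 8334 in control libraries. Most of these were counted to 1 processed pseudogene, Gm13394 (ENSMUSG00000083773.4, chromosome 2, 28933610 to 28934609, minus strand), which shares 901 windows with Gapdh. Gm13394 had 10684 and 12068 in resistant libraries and 8626 and 7746 in control libraries, a log2 fold change of 0.47 ± 0.12 (limma, adjusted p = 0.0431). Reads of the copies and of Gapdh cannot be told apart by these values. With the reads of all copies added, Gapdh had a log2 fold change of 0.47 ± 0.12 and passed (limma, adjusted p = 0.0478), so that 4 of the 33 would be called higher. The Gm13394 call was lost without resistant replicate 1 (log2 fold change 0.56) and without resistant replicate 2 (0.39). It was also lost under median centring, with a replicate block, and with a higher or no filter on low values (limma, adjusted p up to 0.139).

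Shared windows made up 72.2% of Eno1, 68.0% of Pgk1, 41.5% of Pgam1 and 34.4% of Pkm, beside 0% of Hk2, 17.1% of Pfkp and 0.3% of Eno2. Levels between these genes, and the order of Eno1 and Eno2, are therefore uncertain. Eno1, the enolase of most tissues, had 6475 and 7887 normalized counts in resistant libraries and 7125 and 5971 in control libraries, overlapping, with a log2 fold change of 0.13 ± 0.14 (limma, adjusted p = 0.595). Its near-identical copy Eno1b had 1483 and 1730.1 in resistant libraries and 1751 and 1404 in control libraries. With copies added the Eno1 log2 fold change was 0.11 (limma, adjusted p = 0.657). A further enolase gene outside the 35, the muscle-type Eno3, ranked first of the 3 when scaled per kb of exon. It had 124 ± 9.36 RPKM in resistant and 134 ± 29.1 RPKM in control libraries. Eno2 had 61.3 ± 2.16 and 33.2 ± 4.59 RPKM in resistant and control libraries (SD, n = 2 each). This order depends on the scale. Per kb of windows found in no other gene, and scaled to depth, Eno1 averaged 269.3 in resistant and 252.5 in control libraries. On that scale Eno2 averaged 105.2 in resistant and 57.1 in control libraries. Such windows were not counted for Eno3, so its rank among the enolases is uncertain. The groups of Eno3 overlapped and its log2 fold change was -0.06 ± 0.17 (limma, adjusted p = 0.857). Within the pair of Eno1 and Eno2, and per kb of exon, Eno2 took 70.4% and 67.7% of the reads in resistant libraries, against 51.9% and 60.5% in control libraries. The means of 69.0% ± 1.89 in resistant and 56.2% ± 6.08 in control libraries (SD, n = 2 each) lay 12.9 points apart (exact permutation p = 0.333), and Eno1 held the remaining 31.0% in resistant and 43.8% in control libraries. Scaled to windows found in no other gene, Eno2 held 28.2% in resistant and 18.6% in control libraries, so Eno1 was then the more abundant while the difference had the same direction, at 9.62 points.

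**Figure D5:**
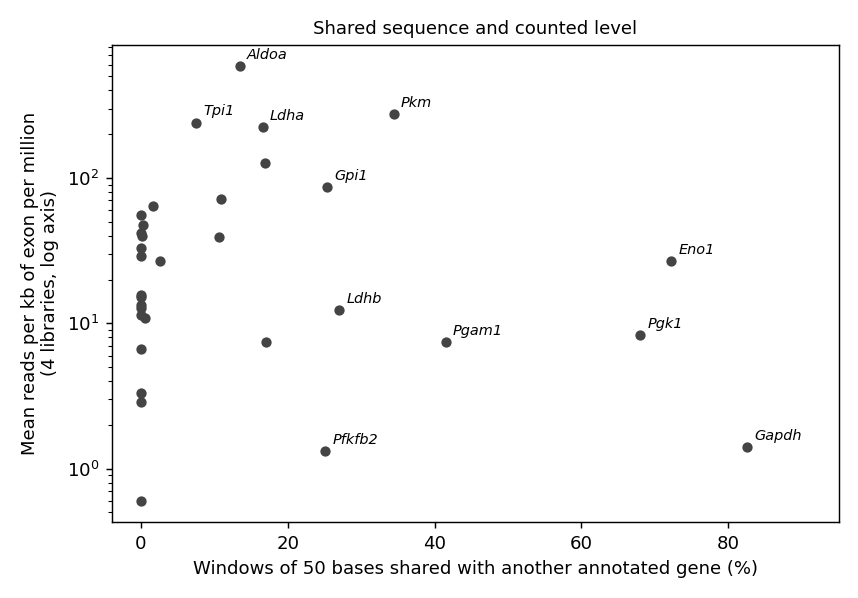
Mean level over the 4 libraries (RPKM, log axis) against the share of a gene's 50-base windows that also occur in another annotated gene (%, x axis), 1 point per gene with more than 3 reads in some library. Gapdh has the largest share, 82.5%, and one of the lowest counted levels, whereas Aldoa, with 13.5%, has the highest.

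At the lactate step, Ldha, whose subunit favours making lactate, had 36394 and 40247 normalized counts in resistant libraries and 35933 and 29611 in control libraries. The groups were just separated, and the log2 fold change was 0.23 ± 0.14 (limma, adjusted p = 0.332). Ldhb, the heart-type subunit, had 1009 and 1081 in resistant libraries against 868 and 747 in control libraries, with 0.37 ± 0.14 (limma, adjusted p = 0.138). Ldhb held 5.44% ± 0.114 of the pair's reads per kb in resistant and 4.95% ± 0.148 in control libraries (SD, n = 2 each). The lactate carrier Slc16a1, known as MCT1, had 9067 and 8218 in resistant libraries and 9373 and 8755 in control libraries, overlapping, with a log2 fold change of -0.07 ± 0.11. With Slc16a3 at or near 0, MCT1 was the lactate carrier of the list with appreciable reads.

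Of the pyruvate dehydrogenase genes, Pdha1, the catalytic subunit, was the most abundant per kb and overlapped between the groups, with 23617 and 22728 normalized counts in resistant libraries and 20449 and 23358 in control libraries (log2 fold change 0.08 ± 0.12). Pdk1, the first of its inhibitory kinases, had 5135 and 5646 in resistant libraries and 5081 and 3977 in control libraries, with a log2 fold change of 0.26 ± 0.14 (limma, adjusted p = 0.282). Pdk3 had 1258 and 1216 in resistant libraries against 1568 and 1486 in control libraries, with -0.30 ± 0.12 (limma, adjusted p = 0.153), and it is the 1 gene lower at an unadjusted p under 0.05. Neither passed. Per kb, Pdk1 took 46.2% ± 0.886 of the 3 kinases in resistant and 39.0% ± 3.89 in control libraries, and Pdk3 took 32.2% ± 2.3 in resistant and 40.1% ± 1.42 in control libraries (SD, n = 2 each, exact permutation p = 0.333 for both). Pdk2 had a log2 fold change of 0.07 ± 0.14.

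None of the 6 pentose phosphate genes passed, and their log2 fold changes ran from -0.05 to 0.23. Taldo1, the transaldolase of the non-oxidative branch and the most abundant of them per kb, had 8336 and 7766 normalized counts in resistant libraries and 6856 and 6830.0 in control libraries. Its log2 fold change was 0.23 ± 0.10 (limma, adjusted p = 0.194). Tkt, its partner transketolase, had 19660.0 and 19319 in resistant libraries, against 19748 and 19117 in control libraries. G6pdx, the rate-limiting dehydrogenase that makes NADPH, had 5499 and 5912 in resistant libraries and 6320.0 and 5512 in control libraries, and overlaps exons of the opposite-strand gene Ikbkg over 418 bases. Pgd, the second NADPH-producing dehydrogenase, stayed between 4731 and 4880 in all 4 libraries. Pgls, the lactonase between them, and Rpia, the ribose phosphate isomerase, had log2 fold changes of 0.08 and 0.21. Of the 6 genes, Taldo1 and Rpia had both resistant libraries above both control libraries (33.3%, beside 28.4% of all tested genes). The other 4 overlapped between the groups.

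Summed over the 35 genes, 0.884% and 0.948% of all counted reads of the resistant libraries fell on them, against 0.778% and 0.748% of those of the control libraries. Exact binomial 95% intervals reach at most 0.0028 percentage points either side and cover counting error only. The members from glucose transport to pyruvate made up 0.623% and 0.690% in resistant and 0.528% and 0.502% in control libraries, so the resistant libraries were higher. The pentose phosphate genes made up 0.0873% and 0.0849% in resistant and 0.0864% and 0.0849% in control libraries, and these overlapped.

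Genes around the pathway, kept in 10 lists, were read from the same fit. They number 124, of which 90 were tested, 13 were higher, 3 were lower and 74 did not pass (14.4% higher and 3.33% lower, beside 5.32% and 4.73% of all tested genes). Their median log2 fold change was 0.11. All but 2 of these 16 calls, those of Ppargc1a and Mlxipl, were lost without resistant replicate 1 and likewise without resistant replicate 2. The adjusted p of the lost calls then ran up to 0.458, with the same signs. Without control replicate 1 or control replicate 2 more were called, 22 and 23 higher and 8 and 5 lower.

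Of 7 tested genes for other glycolytic enzymes, 1 rose (14.3%, beside 5.32% of all tested genes called higher). Adpgk, an ADP-dependent glucokinase, had 6247 and 5871 normalized counts in resistant libraries against 3553 and 4394 in control libraries (log2 fold change 0.62 ± 0.13, limma, adjusted p = 0.0265). Of 12 further lactate and pyruvate genes 3 rose (25.0%, beside the same 5.32%). Bsg, the chaperone that brings MCT1 to the membrane, had 35384 and 35318 in resistant libraries against 26277 and 25275 in control libraries (0.46 ± 0.11, limma, adjusted p = 0.0407). Dlat and Pdhb, further subunits of the pyruvate dehydrogenase complex, rose by log2 fold changes of 0.42 ± 0.10 and 0.49 ± 0.12 (limma, adjusted p = 0.0388 and 0.0484). These 3 calls were lost when libraries were scaled by total reads or centred on their medians. Of 6 tested genes next to the pentose phosphate pathway 2 rose (33.3%, beside the same 5.32%). These were Prps1 and Prps2, whose products make the ribose donor PRPP. Prps1 had 5801 and 5204 in resistant libraries against 3183 and 3829 in control libraries (0.65 ± 0.13, limma, adjusted p = 0.0211), and Prps2 had 4356 and 4305 in resistant libraries against 2885 and 3101 in control libraries (0.53 ± 0.10, limma, adjusted p = 0.0216).

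Of 3 tested gluconeogenic genes 1 fell (33.3%, beside 4.73% of all tested genes called lower). Pcx, the pyruvate carboxylase that makes oxaloacetate, fell to 376.0 and 422 in resistant libraries, against 703 and 763 in control libraries (log2 fold change -0.88 ± 0.15, limma, adjusted p = 0.0139). Of 6 hexosamine genes, which make UDP-GlcNAc from fructose 6-phosphate or put its sugar on proteins and take it off, 3 rose. Gfpt1, the entry enzyme, had 16545 and 17809 in resistant libraries against 11740 and 11811 in control libraries (0.54 ± 0.10, limma, adjusted p = 0.0203). Pgm3 and Gnpnat1, enzymes of the following steps, had 0.56 ± 0.13 and 0.61 ± 0.16 (limma, adjusted p = 0.0362 and 0.0499). The Gnpnat1 call was lost with a pseudocount of 8 or 0.5, and with a higher or no filter on low values. It was also lost under each other scaling, robust moderation, voom and a replicate block. The Pgm3 call was lost with no filter on low values and with a replicate block. The other 3 did not pass, with log2 fold changes of -0.18 ± 0.10 for Uap1, which makes UDP-GlcNAc, -0.01 ± 0.10 for the transferase Ogt and -0.34 ± 0.10 for Mgea5, which removes the sugar (limma, adjusted p = 0.293, 0.956 and 0.0790).

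Of 16 tested regulators 4 rose and 2 fell (25.0% and 12.5%, beside 5.32% and 4.73% of all tested genes). Ppargc1a, a coactivator of mitochondrial genes, had 1009 and 1088 normalized counts in resistant libraries against 193 and 341 in control libraries (log2 fold change 2.03 ± 0.26, limma, adjusted p = 0.00405). Mlxipl, the glucose-responsive factor ChREBP, fell to 49.9 and 45.0 in resistant libraries against 373 and 224 in control libraries (-2.58 ± 0.29, limma, adjusted p = 0.00236). The arrestin Arrdc4, a known target of such factors that lowers glucose uptake, and Prkaa1, a catalytic subunit of AMP-activated kinase, rose by log2 fold changes of 0.65 ± 0.11 and 0.61 ± 0.10 (limma, adjusted p = 0.0112 and 0.0119). The remaining calls, named after their values were seen, were Myc, with 11654 and 12057 in resistant libraries against 6768 and 8683 in control libraries (0.63 ± 0.14, limma, adjusted p = 0.0299), and Epas1, which encodes HIF-2α and fell (-1.38 ± 0.27, limma, adjusted p = 0.0207). Around Myc, the median log2 fold change of the 40 tested neighbours within 5 Mb was 0.40. Over all called genes of the further lists such medians ran from -0.255 around Pcx to that of Myc. They were 0.32 around Prps2 and 0.30 around Dlat, against 0.02 around Bsg and -0.008 around Arrdc4. Hif1a, the hypoxia factor, had 18990 and 18844 in resistant libraries and 16403 and 17596 in control libraries and did not pass (0.16 ± 0.11, limma, adjusted p = 0.399), nor did Txnip, an inhibitor of glucose uptake (0.03 ± 0.15, limma, adjusted p = 0.928).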

How the data were processed

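The authors deposited log2 values, that is, log2 of 1 plus the reads over each library's size factor, made with STAR, DESeq2 and mm10 per the submitters' processing notes; versions, annotation, strand setting and filters are not given in the sources used here. The plan had assumed unlogged values. The scale follows from the steps between low values, which gave whole reads for 100% of values at a tolerance of 0.01 reads. Groups came from the source labels, and 0 columns were left unmapped. Symbols, exons and transcripts came from GENCODE M21 on GRCm38, and promoters from RefSeq.

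The members and lists were chosen with earlier results of these data known, and the lists support nothing beyond their counts. Genes averaging 10 or more normalized counts were fitted by limma 3.58.1 under R 4.3.3 (lmFit, then eBayes with trend, no block, all 4 libraries) on the deposited values, with Benjamini-Hochberg adjustment over 14238 genes and a threshold of 0.05. The pseudocount of 1 makes fold changes of low genes understated. Python 3.11.15 and matplotlib 3.10.9 made the tables and figures. The fit was tested on simulated data, with a spread that was set and not taken from these libraries. It called 48% of the genes changed 1.5 times and 70% of those changed 2 times. At changes of 4 and 8 times it called 92% and 100%. Smaller changes were not simulated, so a gene that did not pass here may still differ.

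Named in full are members past the threshold, the member of highest level per kb of exon in each role group and members whose share of their family differed by at least 5 points, and, from each further list, up to 4 that passed by smallest p; other members are given in less detail. Family shares were compared with exact permutation tests over libraries. Copies were found as annotated genes at another locus sharing at least 200 windows of 50 bases. Libraries of a pair differed beyond sampling noise (chi-square over its degrees of freedom 20.5 for resistant, 66.3 for control). Intervals, and the floor of 3 reads, hold for counting error alone: without molecular identifiers, reads can repeat a molecule. The alternatives tried were pseudocounts, filters and scalings, robust moderation, voom on recovered reads, a replicate block and each library left out; the crossed block, added copies and unique windows were chosen after seeing the data.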

Additional observations from a re-analysis of the deposited data

How the results depend on the processing

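Members called higher numbered 3 and lower 0 under both other pseudocounts, a mean of at least 100, quantile, total-read and median scaling, robust moderation and voom. With no filter on low values, 1 member, Eno2, was called higher, all genes gave 126 higher and 185 lower, and the further pathway genes 0 and 1 (Mlxipl). A mean of at least 100 gave 444 lower calls over all genes. Leaving out each library in turn gave 1 to 12 members higher and 0 to 1 lower, 146 to 2074 and 234 to 1993 of all genes, and 1 to 23 and 1 to 8 of the further pathway genes. Members called higher numbered 3 and 1 with resistant replicate 1 or 2 removed, and 12 and 6 with control replicate 1 or 2 removed. The lone library of such a fit takes the other group's spread. The sign held in 19 members under every alternative and changed in 14. Under quantile normalization, total-read scaling and median centring, log2 fold changes were -0.025, -0.027 and -0.019 for Hk1, -0.0044, -0.026 and -0.018 for Pgd, and -0.042, -0.036 and -0.028 for Tkt. Total-read scaling and median centring moved the median of all genes by -0.0378 and -0.0298. With libraries left out, the ranges were -0.0002 to 0.31 for Slc2a1, -0.089 to 0.12 for Hk1, -0.064 to 0.38 for Pfkl, -0.20 to 0.20 for Pfkm, -0.18 to 0.012 for Pfkfb2, -0.31 to 0.43 for Pfkfb3, -0.0901 to 0.079 for Pgam1, -0.011 to 0.27 for Eno1, -0.14 to 0.0012 for Slc16a1, -0.047 to 0.18 for Pdk2, -0.012 to 0.18 for Pdha1, -0.15 to 0.049 for G6pdx, -0.0014 to 0.0302 for Pgd and -0.019 to 0.028 for Tkt. Replicates 1 of both groups deviated in opposite directions over genes (r = -0.357, across genes). This gives no ground for pairing libraries by number, but cannot show how they were handled. The replicate block gave 3 members higher and 0 lower, 628 and 585 over all genes, and 8 further pathway genes higher. The crossed replicate block sets replicate 1 of each group with replicate 2 of the other. It was chosen after seeing the data and used for no call. It gave 13 and 2 members, 2402 and 2182 of all genes, and 27 and 7 further pathway genes. The causes were not tested. The planned protein identity of isoenzymes was not run. With 2 libraries a group, a single-value permutation test cannot go below p = 0.333.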

Other observations

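Glycogen genes, which store and release glucose 6-phosphate, showed no call among 15 tested in limma. Pgm2, a phosphoglucomutase family member, and Phka2, a phosphorylase kinase subunit, were the 2 higher at an unadjusted p under 0.05, which is 13.3% of the list beside 13.8% of all tested genes. Pgm2 had 2471 and 2377 normalized counts in resistant libraries against 1825 and 1939 in control libraries (log2 fold change 0.37 ± 0.11, adjusted p = 0.0823). Phka2 had 2355 and 2306 in resistant libraries against 1939.5 and 1767 in control libraries (0.33 ± 0.11, adjusted p = 0.112). Gys1, glycogen synthase, and Pygb, the brain-type phosphorylase, had log2 fold changes of 0.13 and 0.09.

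The 10 genes of the shuttles that carry NADH equivalents into mitochondria had a median log2 fold change of 0.11 and 0 calls in limma, with 2 higher at an unadjusted p under 0.05 (20%, beside 13.8% of all tested genes). These were Got2, the mitochondrial aspartate aminotransferase, at 5107 and 5071 in resistant libraries against 3989 and 4191 in control libraries (0.32 ± 0.10, adjusted p = 0.0966), and Slc25a13, an aspartate-glutamate carrier, with 0.32 ± 0.12 (adjusted p = 0.154). Of 9 tested fructose, mannose and galactose genes 0 passed in limma and 2 were higher at an unadjusted p under 0.05 (22.2%, beside the same 13.8%), Mpi, the mannose phosphate isomerase (0.51 ± 0.15, adjusted p = 0.0712), and Akr1b3, an aldose reductase (0.48 ± 0.19, adjusted p = 0.159). Of 6 other glucose transporters 0 passed in limma. The insulin-responsive Slc2a4 was the 1 higher at an unadjusted p under 0.05 (16.7%, beside 13.8%), at 14.3 and 31.1 in resistant libraries against 10.6 and 4.03 in control libraries.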
